A study of Mus musculus with 8 samples.

Results

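The genes described here belong to the integrated stress response (ISR), followed in mouse dental pulp (DP) taken from first molars on postnatal day 7 (P7). The 10 genes named were *Nupr1*, *Chac1*, *Atf5*, *Atf4*, *Atf3*, *Ddit3*, *Ddit4*, *Trib3*, *Asns* and *Sesn2*. *Nupr1*, *Chac1* and *Atf5* were selected on their lower log2 values in the mutant pulp of these same libraries, so their difference between the genotypes is given as a description and was not tested. The other 7 were added to ask whether further targets of the transcription factor ATF4 followed them. 9 of the 10 had a row among the 12148 genes of the expression table. *Atf3* was not analysed here.

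The study deleted *Tgfbr2*, the type II receptor for TGFβ, from DP mesenchyme and compared the pulp transcriptome with that of control mice. All 8 libraries came from C57BL/6J mice that carried Osterix-Cre. The 4 control libraries (Osterix-Cre, numbered 49 to 52) carried the Cre alone, and the 4 mutant libraries (*Tgfbr2cko*, numbered 53 to 56) carried Osterix-Cre together with floxed *Tgfbr2* on both alleles (Osterix-Cre:Tgfbr2f/f). Cre was driven by the promoter of Osterix, a factor of bone and tooth forming cells, so other cells of the pulp kept the receptor, and pulp of the left and right molars was combined for each RNA sample. In such bulk tissue, fewer cells of a type and less RNA per cell cannot be told apart.

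The ISR is a shared answer of cells to amino acid shortage, unfolded protein, heme shortage and double-stranded RNA. Each of these is sensed by its own kinase, all of which phosphorylate the initiation factor eIF2. Bulk translation then slows while a few mRNAs, *Atf4* among them, are translated more, so the level of *Atf4* mRNA does not measure its protein. ATF4 binds C/EBP-ATF response elements, usually with a C/EBP partner, and switches on genes for amino acid supply, redox balance, feedback on eIF2 and, through CHOP (the product of *Ddit3*), cell death. Osteoblasts, which like odontoblasts export large amounts of collagen, use ATF4 in normal development as well.

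The response element was searched as TGATGNAA on both strands of the RefSeq promoter windows (build GRCm38.p6), each of which ran from 250 bases before the gene start to 50 bases after it. Windows were matched for all 10 genes. It was found in the windows of 5 of the 10 genes, namely *Nupr1*, *Chac1*, *Trib3*, *Asns* and *Atf3*, against 3.97% of all 32851 windows and 2.55% of the 9556 genes of the expression table that could be matched to a window. No match lay in the windows of *Atf4*, *Atf5*, *Ddit3*, *Ddit4* and *Sesn2*. The 5 sites are shown so that those of the picked genes can be read beside those of members not picked. The same 8 letters stand before *Nupr1*, *Chac1* and *Atf3*, while *Trib3* and *Asns* carry variants. Each line reads 5′ to 3′ in the sense of the gene, with the match in capitals. TTGCATCA is TGATGCAA read from the opposite strand, and TTACATCA is TGATGTAA.
Nupr1, chr7:126625547-126625606, minus strand: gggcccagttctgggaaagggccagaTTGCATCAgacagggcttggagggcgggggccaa
Chac1, chr2:119351023-119351082, plus strand: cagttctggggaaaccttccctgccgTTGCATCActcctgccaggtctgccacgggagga
Atf3, chr1:191183410-191183469, minus strand: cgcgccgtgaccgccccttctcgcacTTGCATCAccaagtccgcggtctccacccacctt
Trib3, chr2:152344013-152344072, minus strand: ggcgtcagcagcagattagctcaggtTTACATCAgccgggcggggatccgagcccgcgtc
Asns, chr6:7693199-7693258, minus strand: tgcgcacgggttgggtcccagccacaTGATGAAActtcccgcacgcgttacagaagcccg

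Distances were counted from the RefSeq gene start, which differs from the end of the GENCODE gene record given below for each of *Nupr1*, *Chac1*, *Trib3* and *Asns*. The GENCODE record of *Nupr1* begins upstream of its match, and so does that of *Asns*, while the match of *Trib3* lies before its GENCODE record. Between the match and the RefSeq start lay 102 bases in *Nupr1*, 185 in *Chac1*, 102 in *Atf3* and 15 in *Asns*, while the match in *Trib3* began 14 bases downstream of its RefSeq start. A match is a description of these letters and not evidence of binding.

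The libraries held between 8682872 and 13539670 counted reads, so that 1 read was worth 0.0739 to 0.115 CPM, the count scaled to library depth. Values are given as log2 CPM. Reads carry no molecular identifiers, and intervals drawn from counts cover counting error only. The labels do not state that the libraries came from separate animals, so the p-values measure the spread between these libraries and n counts libraries. Libraries 49 and 50, 53 and 56, and 54 and 55 share a number in their titles that the labels do not explain. If it marks a shared source, the design holds 3 controls and 2 mutants. *Tgfbr2* itself lay between 7.16 and 7.64 in the controls and between 7.00 and 7.61 in the mutants, a difference of −0.29 ± 0.17 (SE) with an adjusted p of 0.79 (limma). A gene-level count also takes in exons that a floxed allele keeps, so this value does not check the deletion. All 10 odontoblast markers were measured in every library and their summed level was 62524 to 136987 CPM in the controls and 37610 to 76236 CPM in the mutants. The 13 markers of dental epithelium, enamel matrix genes among them, summed to 196370 CPM in *Tgfbr2cko* library 56 and to between 4206 and 30421 CPM in the other 7. CPM is a share of the library, so a large share for these genes lowers the values of all others in library 56. Without library 56 the median log2 difference over all genes was 0.07, against −0.01 with all 8 libraries. The part of this scaling in low values of library 56 was not tested.

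*Nupr1* encodes a small stress-induced chromatin protein and is a target of ATF4 (ENSMUSG00000030717, chr7:126623249-126630861 in GRCm38). In the Osterix-Cre libraries it was at 7.74, 6.81, 6.82 and 7.47 log2 CPM. In the *Tgfbr2cko* libraries it was at 4.70, 5.05, 4.88 and 4.71. Every mutant library lay below every control library. The mean was 7.21 ± 0.47 (SD, n = 4) in controls and 4.84 ± 0.16 (SD, n = 4) in mutants, a log2 difference of −2.37 or a 5.19-fold lower level. Between 231 and 2102 reads stood behind each value. The mutant libraries were more alike than the controls, which split into a pair near 6.8 and a pair above 7.4.

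*Chac1* encodes a γ-glutamylcyclotransferase that breaks down glutathione and is induced downstream of ATF4 (ENSMUSG00000027313, chr2:119351229-119354381). The Osterix-Cre libraries were at 5.45, 5.61, 5.39 and 5.86 log2 CPM, and the *Tgfbr2cko* libraries at 3.52, 3.85, 4.12 and 2.92. Again the genotypes did not overlap. The means were 5.58 ± 0.21 and 3.60 ± 0.51 (SD, n = 4 each), a log2 difference of −1.98, or 3.94-fold lower, from 101 to 592 reads per library. Here the spread lay mainly among the mutants, with library 56 lowest and library 55 highest. The order of the libraries within a genotype was thus not that of *Nupr1*, whose lowest mutants were libraries 53 and 56 at almost the same level.

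*Atf5* encodes a bZIP factor related to ATF4 and is also translated more when eIF2 is phosphorylated (ENSMUSG00000038539, chr7:44812256-44816658). Osterix-Cre values were 5.41, 5.69, 4.85 and 5.29 log2 CPM, and *Tgfbr2cko* values were 4.70, 4.91, 4.26 and 3.96. Unlike the other genes picked for their lower values, its groups overlapped, since mutant library 54 lay above control library 51. The other 3 mutant libraries lay below every control. The means of 5.31 ± 0.35 and 4.46 ± 0.43 (SD, n = 4 each) gave a log2 difference of −0.85, or 1.81-fold lower, from 166 to 499 reads. The exons of *Atf5* share 4.11% of their length with *Nup62* on the opposite strand, and the strand setting of the counting was not given in the sources used here. The study's own list of axon-related transcripts also holds *Atf5*.

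A gene is called lower or higher below under the thresholds the study used, an unadjusted limma p under 0.05 with at least a 1.5-fold difference. Under these, 443 of 12148 genes (3.65%) were called lower and 258 (2.12%) higher in *Tgfbr2cko* pulp. At an adjusted p under 0.05 the share was 0.7% lower (85 genes) and 0.247% higher (30 genes). The genotypes did not overlap in 3.14% of genes with the mutants below the controls, and in 2.13% with the mutants above.

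Of the 6 members measured beside the 3 picked ones, 0 of 6 were called lower, 0 of 6 were called higher and 0 of 6 had groups that did not overlap. Limma gave 0 of 6 at an adjusted p under 0.05 and 0 of 6 at an unadjusted p under 0.05. 4 of the 6 had a difference below 0, and their median log2 difference was −0.09, against −0.01 over all genes, of which 51.2% lay below 0. An exact two-sided permutation test (70 ways to split 8 libraries into 4 and 4), whose smallest possible p is 0.0286, gave p-values from 0.2 to 1 for these 6 genes.

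**Figure D1:**
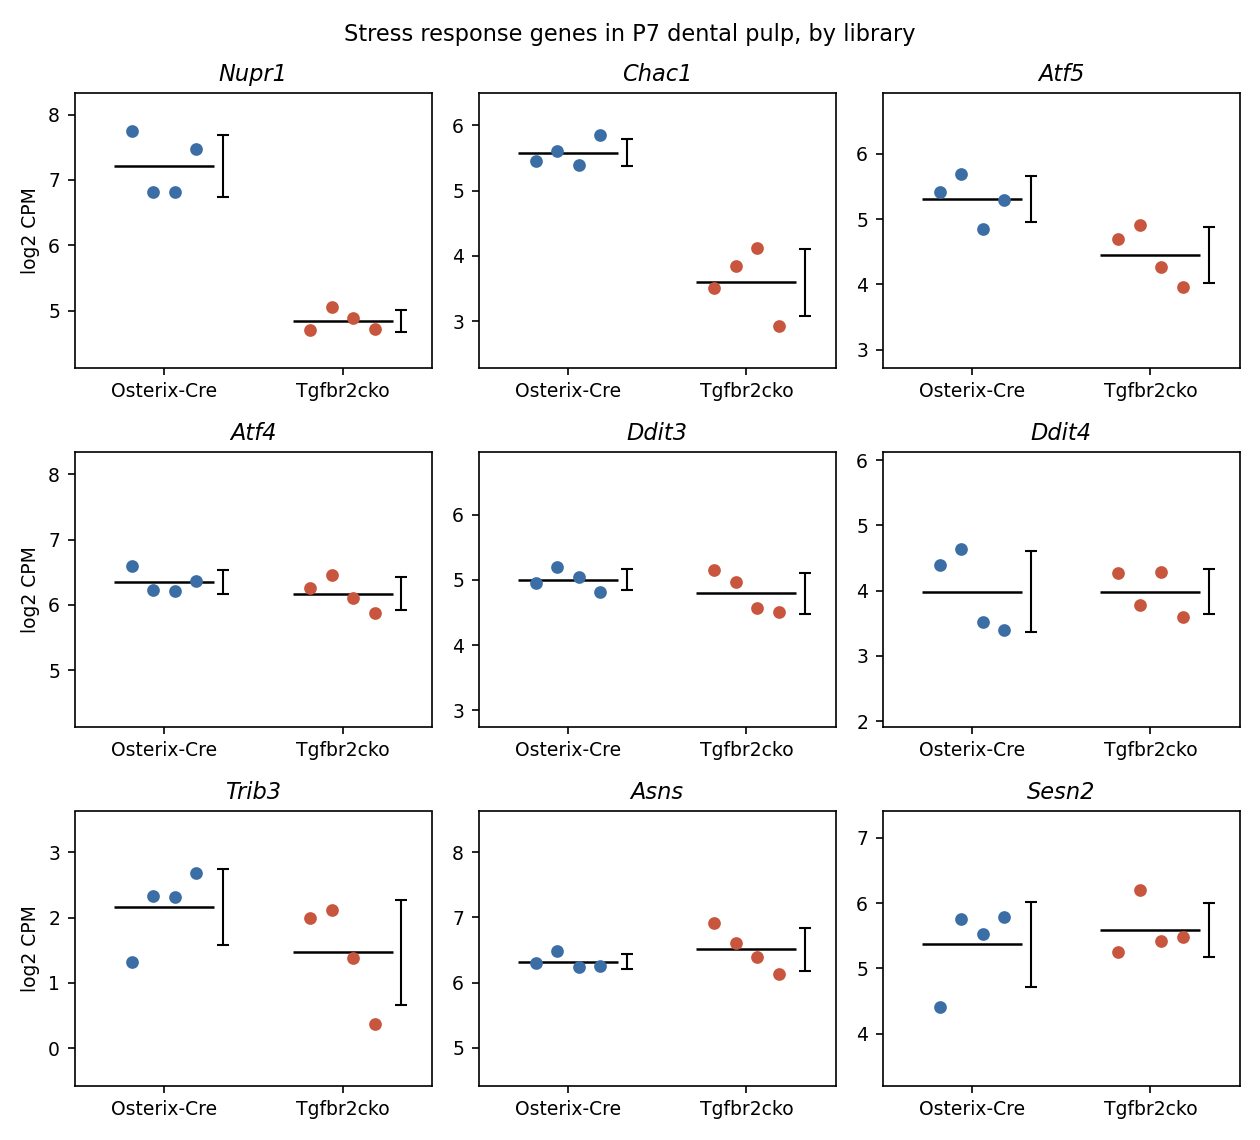
Each panel plots 1 gene, with log2 CPM on the vertical axis (each panel spans the same number of log2 units) and 1 point per library, Osterix-Cre in blue and *Tgfbr2cko* in red; the line is the mean and the bar beside it the mean ± SD of 4 libraries. *Nupr1* and *Chac1* show 2 separate groups, *Atf5* overlaps by 1 library, and the other 6 genes overlap throughout.

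*Atf4* encodes the central factor of the response (ENSMUSG00000042406, chr15:80255184-80257541). Its mRNA was at 6.60, 6.23, 6.21 and 6.36 log2 CPM in Osterix-Cre pulp and at 6.25, 6.46, 6.10 and 5.87 in *Tgfbr2cko* pulp. Mutant libraries 55 and 56 lay below every control, and library 54 above 3 of the 4. The log2 difference was −0.18 ± 0.16 (SE), with a 95% interval from −0.52 to 0.17 and an adjusted p of 0.944 (limma).

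*Ddit3* encodes CHOP, the factor linked to cell death in prolonged stress (ENSMUSG00000025408, chr10:127290774-127296288). Osterix-Cre libraries were at 4.95, 5.20, 5.04 and 4.82, and *Tgfbr2cko* libraries at 5.15, 4.97, 4.56 and 4.50, so mutant libraries 55 and 56 were again the lowest. This gave a log2 difference of −0.21 ± 0.18 (SE), with a 95% interval from −0.60 to 0.19 and an adjusted p of 0.94 (limma). The annotation holds a second gene record of the same symbol that covers 6.13% of its exon length on the same strand.

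*Trib3*, a pseudokinase induced by CHOP and ATF4 that feeds back on both, came nearest to the pattern of the picked genes (ENSMUSG00000032715, chr2:152337422-152344032). Control values were 1.32, 2.33, 2.32 and 2.68 log2 CPM, and mutant values were 2.0, 2.12, 1.37 and 0.37. Control library 49 lay below 3 of the 4 mutants, and the other 3 controls lay above all of them. A log2 difference of −0.70 ± 0.42 (SE), with a 95% interval from −1.60 to 0.21 resulted, with an unadjusted p of 0.121 and an adjusted p of 0.793 (limma). It rested on 17 to 65 reads per library, the fewest of any member. Without control library 49 the difference was −0.98 and passed the study's thresholds, and without mutant library 56 it was −0.33. With the enamel transcripts of each library added to the model it was −0.24.

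*Asns*, which makes asparagine and is a classic target of ATF4 in amino acid shortage (ENSMUSG00000029752, chr6:7675169-7693254), was at 6.30, 6.49, 6.23 and 6.26 in Osterix-Cre pulp and at 6.91, 6.61, 6.39 and 6.13 in *Tgfbr2cko* pulp. Mutant libraries 53 and 54 were above every control and library 56 was below every control. Its log2 difference was 0.19 ± 0.17 (SE), with a 95% interval from −0.17 to 0.56 and an adjusted p of 0.93 (limma), from 715 to 1196 reads per library.

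*Ddit4* and *Sesn2* both restrain mTORC1, the kinase complex that drives growth when amino acids are plentiful. *Ddit4* (ENSMUSG00000020108, chr10:59949669-59951834) was at 4.39, 4.64, 3.53 and 3.39 in Osterix-Cre libraries and at 4.27, 3.78, 4.29 and 3.60 in *Tgfbr2cko* libraries. Its controls formed a high and a low pair, with the mutants between them, and the means of 3.99 ± 0.62 and 3.99 ± 0.35 (SD, n = 4 each) left a difference of −0.00 ± 0.29 (SE) with a 95% interval from −0.63 to 0.63 and an adjusted p of 1.00 (limma). The sign of so small a value turned under several ways of processing.

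*Sesn2*, which also senses leucine (ENSMUSG00000028893, chr4:132492032-132510501), was at 4.41, 5.75, 5.53 and 5.78 in control libraries and at 5.26, 6.20, 5.42 and 5.48 in mutant libraries. Control library 49 was the lowest of the 8 and mutant library 54 the highest. *Sesn2* had a log2 difference of 0.22 ± 0.29 (SE), with a 95% interval from −0.41 to 0.85 and an adjusted p of 0.989 (limma), and it was −0.10 without library 49.

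**Figure D2:**
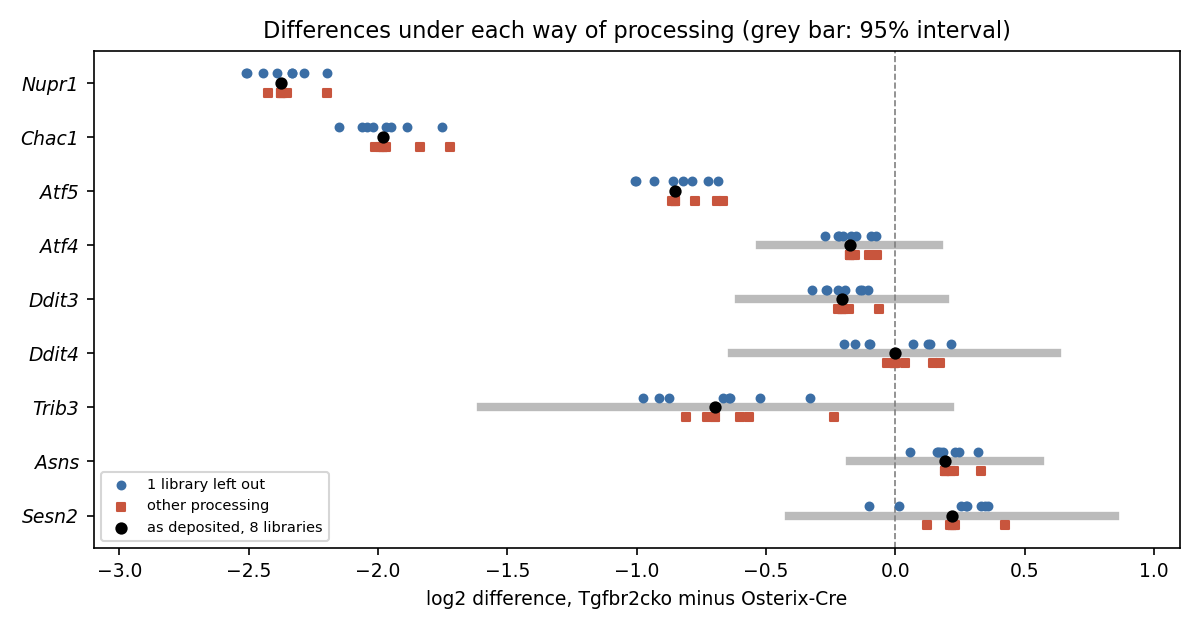
The horizontal axis is the log2 difference, *Tgfbr2cko* minus Osterix-Cre, and each row is 1 gene; black points are the values from all 8 libraries, grey bars the 95% limma interval (drawn for the 6 genes that were not picked), blue points leave out 1 library each, and red squares are the other ways of processing. *Nupr1* lay between −2.51 and −2.20 and *Chac1* between −2.15 and −1.72, given as a description. The intervals of *Atf4*, *Ddit3*, *Ddit4*, *Trib3*, *Asns* and *Sesn2* include 0.

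Scaled by exon length (log2 CPM per kilobase), the order of levels in control pulp was *Nupr1* at 5.88, *Atf4* at 5.11, *Chac1* and *Asns* at 4.87 each, *Atf5* at 4.32, *Ddit3* at 4.22, *Sesn2* at 3.57, *Ddit4* at 3.18 and *Trib3* at 1.07. Among neighbours in this order, *Atf4* and *Chac1*, *Chac1* and *Asns*, *Atf5* and *Ddit3*, and *Sesn2* and *Ddit4* overlapped between libraries, while the other neighbours did not. *Nupr1* was thus the most abundant member in control pulp. In the mutants *Asns* stood highest at 5.06 and *Atf4* next at 4.94, *Nupr1* was the fifth at 3.51, and *Chac1* was the eighth of 9 at 2.89.

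Over the 8 libraries, *Nupr1* and *Chac1* had a Pearson r of 0.94. This value carries the genotype difference for which both were picked. With the genotype means removed r was 0.29, so the libraries within a genotype did not rank alike for the pair. *Atf5* had an r of 0.79 with *Nupr1* and 0.83 with *Chac1*, or 0.23 and 0.44 within genotypes. With *Atf4*, the r within genotypes was 0.71 for *Nupr1* and 0.45 for *Chac1*. The median r with *Atf4* within genotypes was 0.28 over all genes. It was 0.06 over 47 further ATF4 targets, the wider list described below. Within genotypes *Atf5* was nearer to *Asns* (r of 0.78) and to *Atf4* and *Ddit3* (r of 0.70 each), and the closest pair of all members was *Ddit3* with *Asns* (r of 0.92). These correlations share library depth and composition and are given without p.

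Across the whole table, the genes whose profile was most like that of *Nupr1* were *Cib3* (r of 0.99), *Wfdc17* (0.99), *Ooep* (0.99), *Slc39a13* (0.98) and *Fam161a* (0.96). *Cib3*, a calcium and integrin binding protein, was at 4.93, 4.21, 4.17 and 4.95 in control libraries and 1.21, 1.40, 1.90 and 1.51 in mutant libraries, and its controls split into the same high and low pairs as those of *Nupr1*. *Slc39a13*, a zinc transporter of connective tissue, had a log2 difference of −0.46, and with the genotype means removed its r with *Nupr1* was 0.58. The 5 most like *Chac1* were *Pirb* (0.99), *Htra3* (0.98), *Kctd11* (0.98), *Rcan3* (0.98) and *Gad1* (0.98). The 5 most like *Atf5* were *Zfp119b*, *Rassf1*, *Foxs1*, *Maf1* and *Bnip3l-ps*, with r between 0.94 and 0.96.

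**Figure D3:**
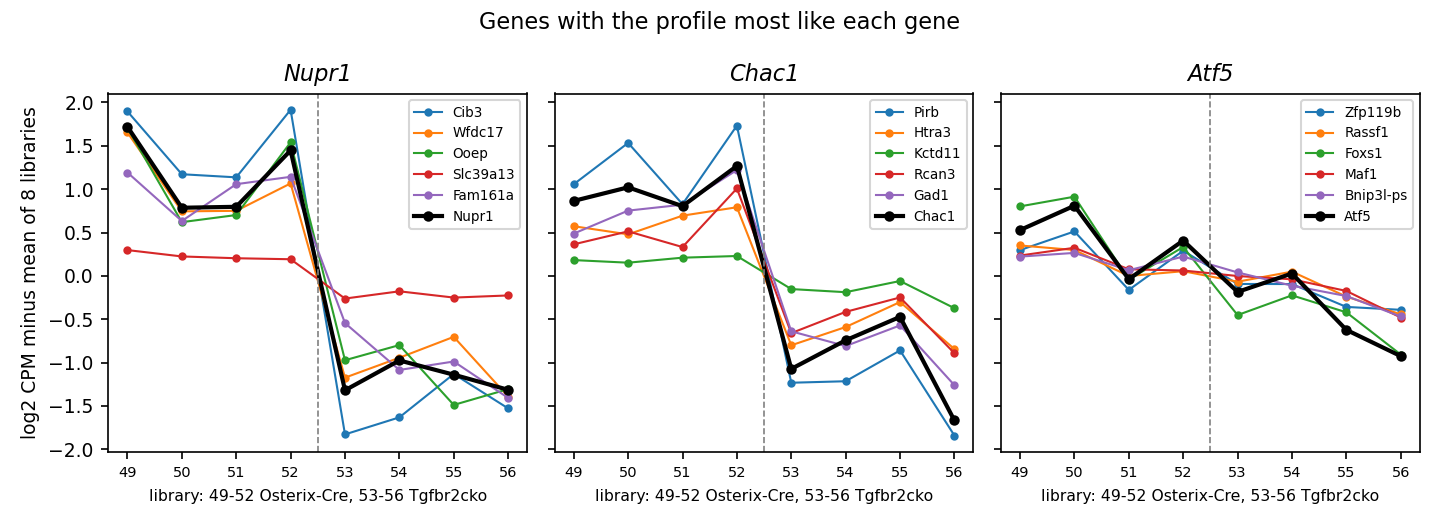
Each panel shows 1 of the 3 picked genes in black and the 5 genes of highest Pearson r in colour; the vertical axis is log2 CPM minus the gene's mean of 8 libraries, and the horizontal axis gives the library number, with a dashed line between the genotypes. The lines only join points of the same gene, since libraries have no order. *Nupr1* and its nearest genes drop at the dashed line, and *Atf5* itself overlaps between the genotypes by 1 library.

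A wider list of ATF4 targets, without the 10 members, named 56 genes, of which 47 were measured. 1 of the 47 was called lower (*Mthfd2*) and 3 were called higher (*Phgdh*, *Slc7a5* and *Gadd45a*), shares to be read against 3.65% and 2.12% of all genes. Limma gave 0 of 47 at an adjusted p under 0.05 and 6 of 47 at an unadjusted p under 0.05, a level that 8.38% of all genes reached. The groups did not overlap in 2 genes that were lower and in 1 that was higher, against 3.14% and 2.13% of all genes. The median log2 difference of the list was −0.07, with 31 of 47 below 0, and the range was −0.60 to 0.80. *Nupr1* and *Chac1* lay below this range. They were picked for their fall, so this comparison does not show whether targets followed them.

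Among the 10 measured enzymes of amino acid synthesis and one-carbon supply, the calls went both ways. *Phgdh*, the first enzyme of serine synthesis, had Osterix-Cre values of 6.47, 6.54, 6.75 and 6.64 and *Tgfbr2cko* values of 6.97, 7.21, 7.41 and 7.54. All mutants lay above all controls, with a log2 difference of 0.68 and an adjusted p of 0.0571 (limma), the smallest of the wider list. *Mthfd2*, which links serine to mitochondrial one-carbon units, had Osterix-Cre values of 4.91, 4.32, 4.03 and 4.44 and *Tgfbr2cko* values of 4.30, 3.89, 3.78 and 3.34. Those groups overlapped, and the log2 difference was −0.60 with an adjusted p of 0.452 (limma). Its call was lost in 7 of 16 alternative fits, among them those without control library 49 or 52 or mutant library 55 or 56, and the difference ran from −0.75 to −0.44. *Pycr1*, which completes proline synthesis and was singled out after its values were seen, had control values of 6.74, 6.64, 6.49 and 7.12 and mutant values below them, of 6.47, 6.34, 5.99 and 5.93 (log2 difference −0.56, adjusted p of 0.222, limma). *Psat1* and *Shmt2*, which act beside *Phgdh* in serine and glycine supply, had differences of −0.13 and −0.14.

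Of 9 amino acid transporters, *Slc7a5*, the light chain of the large neutral amino acid carrier, was called higher. Control values were 3.73, 3.95, 3.66 and 3.87, and mutant values were 4.53, 3.66, 4.63 and 5.03, where library 54 stayed at the control level. The difference on the log2 scale was 0.66 with an adjusted p of 0.412 (limma). Its call was lost in 5 of 16 alternative fits, among them those without library 51, 55 or 56, and the difference ran from 0.45 to 0.93. Its partner chain *Slc3a2* was at −0.19 and the glutamine carrier *Slc38a2* at 0.01. 0 of the 13 genes listed under tRNA charging were called, with differences between −0.30 and 0.12 and a median of −0.04. They include *Xpot*, which exports tRNA and does not charge it. The 8 other tRNA synthetases had a median of 0.04, also with 0 called.

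The 15 measured genes of stress and feedback held 1 call. *Gadd45a*, a growth arrest gene, was called higher at a log2 difference of 0.80 with an adjusted p of 0.532 (limma), from 28 to 166 reads. Its highest mutant, library 56 at 3.62, stood apart from the other mutants at 2.15 to 2.45, and without library 56 the difference was 0.46 and was not called. Its call was lost in 9 of 15 alternative fits. Exons of *Gadd45a* share 19.1% of their length with an antisense transcript, *E230016M11Rik*. *Ppp1r15a*, the stress-induced subunit that brings a phosphatase to eIF2, was singled out after its values were seen. Control values were 5.14, 5.32, 5.38 and 5.71, and mutant values lay below them at 4.70, 4.95, 4.91 and 4.76. The log2 difference of −0.55 was just under 1.5-fold, with an adjusted p of 0.183 (limma).

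In the wider list, 12 measured genes had the response element in their promoter window and 26 with a window did not. Their median log2 differences were −0.20 (range −0.56 to 0.31) and −0.07 (range −0.60 to 0.80). The ranges overlapped. Among the members not picked, those with the motif were at −0.70 and 0.19, and those without it were at −0.18, −0.21, −0.00 and 0.22.

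**Figure D4:**
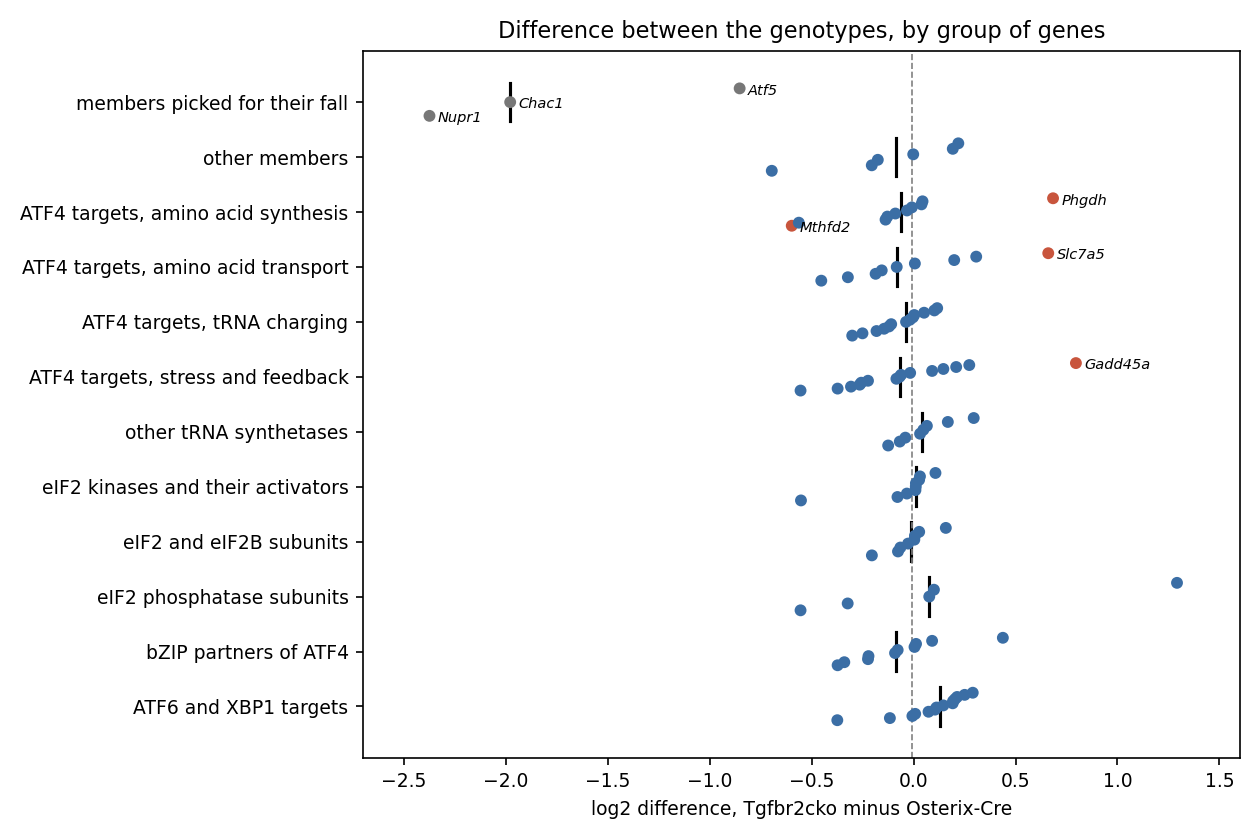
The horizontal axis is the log2 difference, *Tgfbr2cko* minus Osterix-Cre, and each row is a group of genes with 1 point per gene; vertical ticks are group medians, the dashed line is the median of all genes, grey marks the 3 genes picked for their lower values, and red marks genes called under the study's thresholds. *Nupr1* and *Chac1*, which were picked for their fall, lie to the left of every other point. The medians of the other groups lie between −0.09 and 0.13.

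Upstream of ATF4, none of the 9 eIF2 kinases and their regulators was called. Differences on the log2 scale were 0.01 for *Eif2ak1* (heme), 0.11 for *Eif2ak3* (PERK, unfolded protein) and −0.03 for *Eif2ak4* (GCN2, amino acids). *Eif2ak2* (PKR, double-stranded RNA) was at −0.55 with an adjusted p of 0.403 (limma). The 8 subunits of eIF2 and its exchange factor eIF2B lay between −0.20 and 0.16, with 0 called. Of the 5 phosphatase subunits 0 were called, although *Ppp1ca* ran from 76 to 1017 reads with a difference of 1.29 and an adjusted p of 0.661 (limma). 0 of 10 measured bZIP partners of ATF4 were called, with a median of −0.08.

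The unfolded protein response has other arms, through ATF6 and XBP1. 0 of their 14 targets were called, 3 of 14 were below 0, and the median log2 difference was 0.13. *Hspa5*, the chaperone BiP, had a difference of 0.25 with an adjusted p of 0.894 (limma), and *Calr*, a chaperone of glycoproteins, one of 0.29. Collagen secretion loads this machinery.

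Close relatives of the members were counted as well. *Chac2*, the constitutive paralog of *Chac1*, was at 0.23 and *Nupr1l*, the paralog of *Nupr1*, at −0.25. Of the 12 relatives 1 was called, *Trib2*, which was higher at a log2 difference of 0.71 with an adjusted p of 0.12 (limma). Control values were 4.98, 5.36, 5.29 and 5.25, and mutant values lay above them at 6.03, 6.23, 6.05 and 5.40, opposite in sign to *Trib3*. *Sesn1* was at −0.23 and *Sesn3* at 0.30.

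Beside *Chac1*, 12 genes of glutathione synthesis and breakdown were measured and 1 was called. *Gsr*, which returns oxidized glutathione to its reduced form, was called lower, with control values of 7.68, 7.83, 7.76 and 8.01 and mutant values of 7.40, 7.40, 7.32 and 6.39. Its log2 difference was −0.70 with an adjusted p of 0.204 (limma), and it was no longer called without library 56 (−0.45), with library weights (−0.53) or with enamel transcripts in the model (−0.49). The cystine carrier gene *Slc7a11* rested on as few as 3 reads.

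*Nupr1*, *Ddit4*, *Sesn2* and *Trib3* also answer to signals other than ATF4, so targets of p53, glucocorticoids and hypoxia and the immediate early genes were counted. The shares to read these counts against are 3.65% of all genes called lower, 2.12% called higher and 51.2% below 0. 0 of 10 p53 targets and 0 of 9 glucocorticoid targets were called. 2 of 7 hypoxia targets were called higher, *Slc2a1* at 0.68 and *Ankrd37* at 1.02, with adjusted p-values of 0.275 and 0.314 (limma), and none of the 7 was below 0. The call of *Slc2a1* was lost in 3 of 16 alternative fits, among them those without library 52 or 56, and that of *Ankrd37* in 1 of 15, the fit without library 54. Of 16 immediate early genes *Arc* fell, at a log2 difference of −1.95 with an adjusted p of 0.0314 (limma), and *Egr2* was called lower at −1.70 with an adjusted p of 0.121 (limma) from few reads. The adjusted p of *Arc* (limma) ran from 0.0184 to 0.121 over 16 alternative fits and missed 0.05 in 7 of them, among them those without library 49, 51, 52, 55 or 56.

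Lists of markers for other cells were counted beside *Nupr1* and *Chac1*. Over all genes, 3.65% were called lower, 2.12% were called higher and 51.2% lay below 0. All 9 macrophage markers were below 0 and 4 of 9 were called lower (*Ptprc*, *Cd68*, *Lyz2* and *Mrc1*); their summed level was 1182 to 1585 CPM in the controls and 558 to 1229 CPM in the mutants. *Lyz2*, lysozyme of macrophages, fell at a log2 difference of −1.19 with an adjusted p of 0.028 (limma), which missed 0.05 in 6 of 16 alternative fits (range 0.00371 to 0.109), among them those without library 49, 50, 51, 52 or 55. 3 of 10 odontoblast markers were called lower (*Col1a2*, *Nes* and *Bglap*) and 1 was called higher (*Ibsp*), with the summed levels given above. 7 of 7 endothelial markers were below 0 with 1 called lower (*Tek*), and the sums were 331.5 to 423.8 CPM and 277.9 to 358.1 CPM. Of the 13 markers of dental epithelium, 8 were above 0 and 5 were below 0. *Cldn1* and *Cdh1*, genes of epithelial cell junctions, were called higher. Only 1 of the 13 was called lower. This was *Klk4*, the late enamel protease, which fell at a log2 difference of −2.71 with an adjusted p of 0.000136 (limma). The part of these cell types in the values of *Nupr1*, *Chac1* and *Atf5* was not tested. With the enamel transcripts in the model the log2 difference of *Nupr1* was −2.42, that of *Chac1* −1.84 and that of *Atf5* −0.67, and without library 56 they were −2.33, −1.75 and −0.69.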

How the data were processed

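RNA from P7 first molar pulp was preamplified by SMART-seq, and Nextera XT libraries were sequenced on an Illumina NovaSeq. Per the submitters' processing notes, reads were handled with fastp 0.21.0, HISAT2 2.1.0, featureCounts of Subread 2.0.1 and limma on GRCm38.p5. The study's methods name GENCODE M14 and the CLEAR filter for reliably quantifiable transcripts. The deposited table holds log2 values that the authors made with voom, the log2 of the count plus 0.5, scaled to library depth (log2 CPM). All values came back to whole reads within 1.41e-05 of a read, which gave the depth of each library. The strand setting was not given in the sources used here.

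Genotypes were compared on the deposited log2 values with limma 3.58.1 (trend, two-sided) in R 4.3.3, over all 12148 genes with Benjamini-Hochberg adjustment, and the fit was tested on simulated data. Single members also got an exact permutation test. Positions and exon lengths came from GENCODE M21 (GRCm38) and promoter windows from RefSeq (GRCm38.p6). Motif search, correlations and figures used Python 3.11.15.

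The members and gene lists were chosen with earlier results of these data known. Named were the members, each listed gene that was called and, in some lists without calls, 1 or 2 of the highest genes. The 5 genes most correlated with each picked member were named too. Other uncalled genes were named outside this rule, among them *Psat1*, *Shmt2*, *Slc3a2*, *Slc38a2*, *Slc7a11*, *Chac2*, *Nupr1l*, *Sesn1*, *Sesn3* and *Ppp1ca*. Alternatives were no intensity trend, library weights, voom weights, quantile normalization, median centring, a mean log2 value of at least 3, averaging libraries of the same title number, enamel transcripts (*Amelx*, *Ambn*, *Enam*) as a covariate, each library left out, and calls at an adjusted p under 0.05. Schwann cell markers (3 of 7 measured) and erythroid markers (5 of 7 measured) had 0 calls; the 6 skeletal muscle markers were not analysed here. The result of 1 marker of dental epithelium is not reported here.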

Additional observations from a re-analysis of the deposited data

Results flagged for a closer look

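1 value stood apart from its group. *Gsr*, the glutathione reductase gene, was at 6.39 log2 CPM in *Tgfbr2cko* library 56, while the other 3 mutant libraries lay between 7.32 and 7.40. The gap to the nearest of them was 0.923 of the whole range, above Dixon's critical value for 4 libraries. 42 groups were examined in this way, and chance alone flags about 1 in 20, or 2.1 of them.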

How the results depend on the processing

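*Nupr1* (−2.51 to −2.20), *Chac1* (−2.15 to −1.72) and *Atf5* (−1.01 to −0.67) ran over these ranges in 16 alternative fits, given as a description since they were selected on this difference. Of the other members, 0 of 6 were called lower, but 1 was (*Trib3*) when libraries of the same title number were averaged, and 0 to 1 when each library was left out, the 1 being *Trib3* without Osterix-Cre library 49. Of the wider ATF4 targets, 1 was called lower and 3 higher; these counts were 0 and 1 with library weights, 0 and 1 with enamel transcripts in the model, and 0 and 0 at an adjusted p under 0.05. With averaging, and without Osterix-Cre library 49, the 1 called lower was *Ppp1r15a* in place of *Mthfd2*. Quantile normalization, median centring and the filter at a mean log2 value of 3 gave 2 called higher, without *Gadd45a*. Leaving out each library gave 0 to 3 called lower (0 without Osterix-Cre 52, *Tgfbr2cko* 55 or *Tgfbr2cko* 56; 3 without *Tgfbr2cko* 54) and 1 to 3 called higher (1 without Osterix-Cre 51, *Tgfbr2cko* 55 or *Tgfbr2cko* 56). The difference of *Ddit4* changed sign, to 0.15 with library weights, 0.17 with averaging and 0.038 with enamel transcripts in the model, and ran from −0.20 to 0.22 with each library left out. That of *Sesn2* ran from −0.10 to 0.36 with each library left out. The mean filter left 10313 genes and removed *Trib3*, *Gadd45a*, *Egr2* and *Ankrd37*. The causes were not tested. No paired analysis was possible because the genotypes share only the title number 2, so a block would rest the genotype difference on Osterix-Cre library 51 and *Tgfbr2cko* libraries 54 and 55 alone.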
